A study of Mus musculus with 7 samples.

Results

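The genes described here encode ATP-dependent chromatin remodellers and their subunits: 26 genes of the SWI/SNF complexes, 6 of the ISWI group, 13 of the CHD and NuRD group, 5 of the INO80 family and 3 other SNF2 ATPases. They were chosen by name, as 53 genes whose symbols stand on the array, and they hold 147 of the 56605 non-control probes. A gene was represented by its probe with the highest mean signal among those kept after a filter on dim probes, and every probe was used for Smarca4 and Smarca2. Of the 53 genes, 52 passed the filter and were tested, and 50 were well above background on every array. Actl6b, the neuronal form of an actin-related SWI/SNF subunit, was not well above background on any array, with signals of 0.00585 to 0.0270 relative to each array's 75th percentile, and was not tested.

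RNA came from hearts of adult female mice and was hybridised to one-colour arrays with 60-base probes. The 3 wild type samples (Wild Type_181, Wild Type_183, Wild Type_189) are labelled as NTg, without the transgene, and the 4 knockout samples (Mutant_175, Mutant_182, Mutant_187, Mutant_188) as Tg with a Brg1 and Brm knockout. Both groups received tamoxifen, and further samples mentioned by the series design were not analysed here. Brg1 is the protein of Smarca4 and Brm that of Smarca2. Per the series design, tamoxifen activated a Cre-ERT recombinase, under the MHC promoter of heart muscle, to delete Brg1 in mice that were null for Brm. Whether the wild type animals also lacked Brm, the time after tamoxifen and the animals' exact ages are not given in the sources used here. Although the labels name cardiomyocytes, the RNA kit is one for tissue and no cell isolation is described. All cells of the heart may thus contribute, and Cre under this promoter leaves Smarca4 intact in the other cell types. Nothing says that the samples of a group came from separate animals, so the p-values refer to the spread among these arrays, which may be technical. Per the file names, all wild type arrays lay in row 1 of the slide and all knockout arrays in row 2, so the row and the genotype cannot be told apart.

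Remodellers use ATP to slide, evict or exchange nucleosomes. SWI/SNF complexes contain a single ATPase, either Brg1 or Brm, together with core subunits, not all of which are in every form. The variants BAF, PBAF and ncBAF are told apart by a few defining subunits. Many subunits come from small families of paralogs that occupy the same place, so that a cell can exchange one paralog for another. ISWI motors space nucleosomes, NuRD joins a CHD motor to histone deacetylases, and the INO80 family exchanges the histone variant H2A.Z. In heart muscle, Brg1 is known for its part in development and in the shift of myosin genes under stress.

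Probes that lie in different places of 1 transcript show whether a change was seen along it, and some of them are printed here because the results on the deleted ATPases and on the most changed remodellers turn on them. Each is named by its gene and the first base it covers in the transcript listed on the array, and is given 5′ to 3′ in the sense of the transcript.
Smarca4 base 482: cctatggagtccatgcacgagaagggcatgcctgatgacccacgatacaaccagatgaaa
Smarca4 base 4270: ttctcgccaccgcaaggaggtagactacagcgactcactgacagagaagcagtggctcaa
Smarca2 base 3980: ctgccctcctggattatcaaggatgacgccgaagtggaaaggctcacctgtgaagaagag
Smarcd3 base 943: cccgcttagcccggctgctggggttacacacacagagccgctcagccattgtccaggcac
Smarcd3 base 1059: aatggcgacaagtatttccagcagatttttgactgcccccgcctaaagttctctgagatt
Chd3 base 5482: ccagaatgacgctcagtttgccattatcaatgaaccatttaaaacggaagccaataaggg
Chd6 base 2726: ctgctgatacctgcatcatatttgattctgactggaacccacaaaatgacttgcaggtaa
Chd6 base 4411: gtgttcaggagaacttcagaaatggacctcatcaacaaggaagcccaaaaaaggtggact
On build mm9 the Smarca4 probes lie at chr9:21439194-21439253 and chr9:21483531-21483590 and the Smarca2 probe at chr19:26795294-26795353, all on the plus strand. On the minus strand, the Smarcd3 probes lie at chr5:24100730-24100789 and, across a splice junction, chr5:24099802-24100673, and the Chd3 probe at chr11:69160614-69160673. The Chd6 probes both span junctions on the minus strand of chromosome 2, from 160818015 to 160834146 and from 160793726 to 160795127. No annotation of that build was used here, so exon numbers are not given.

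Smarca4 was lower in every knockout sample. Signals are given throughout relative to the 75th percentile of the array, and samples in the order of their names above. The brightest Smarca4 probe, which begins at base 5452, read 34.7, 32.8 and 34.2 in the wild type samples and 5.87, 10.3, 14.9 and 8.25 in the knockout samples. The groups did not overlap, and Mutant_187 kept the most signal. The log2 fold change, knockout minus wild type, was -1.87 (SE 0.29, n = 3 and 4, adjusted p = 0.0021 with limma and Benjamini-Hochberg adjustment over 22971 genes). The probe at base 4270, printed above, read 1.58, 1.46 and 1.54 against 0.260, 0.404, 0.655 and 0.398, or -1.91 on the log2 scale (SE 0.28, limma adjusted p = 0.0017 over all probes). The remaining signal was 29.0% ± 11.4 of the wild type mean at base 5452 and 28.1% ± 10.8 at base 4270 (SD, n = 4), from 17.3% and 17.0% in Mutant_175 to 44.1% and 42.9% in Mutant_187. The probe at base 482 read 0.0474, 0.0400 and 0.0482 in the wild type samples and 0.00784, 0.0117, 0.0161 and 0.00617 in the knockout samples, where it was not well above background on any array. It was therefore at least 1.39-fold lower, with the wild type mean set against a floor for each knockout array (its lowest signal called well above background, or this probe's signal where higher). In whole hearts fewer cells of a type and less RNA per cell cannot be told apart.

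Smarca2, the other ATPase, did not separate the groups at any of its 3 kept probes. The brightest, at base 1794 of a short transcript, read 2.04, 1.82 and 1.90 in the wild type samples and 2.002, 2.21, 1.89 and 2.01 in the knockout samples, with a log2 fold change of 0.08 (SE 0.11, limma adjusted p = 0.59). The probe at base 3980 of the long transcript, printed above, read 0.358, 0.224 and 0.293 against 0.301, 0.292, 0.267 and 0.299, a log2 fold change of 0.01 (SE 0.17). The third probe, at base 1901, gave -0.23 (SE 0.12, limma adjusted p = 0.17 over all probes). The knockout means were 105.7%, 99.2% and 85.4% of the wild type means at bases 1794, 3980 and 1901. The sources used here do not say which part of Smarca2 the null allele lacks, and a probe outside that part checks nothing. The Brm part of the knockout label was thus not visible in these probes. Against spike-in RNA in place of the percentile, the brightest probe gave 0.65 (adjusted p = 0.029).

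**Figure D1:**
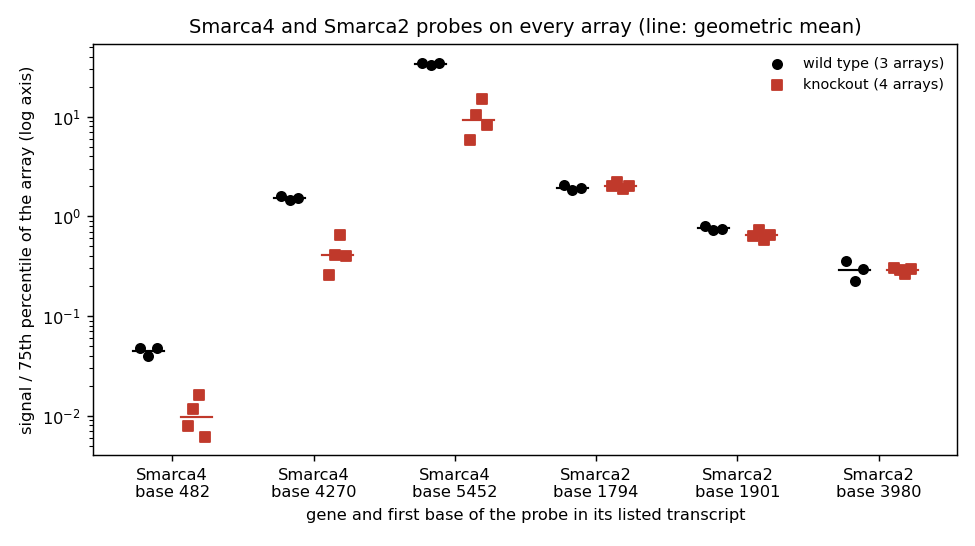
Signal of each kept Smarca4 and Smarca2 probe on every array, divided by the 75th percentile of the array, on a log axis; black circles are the 3 wild type samples, red squares the 4 knockout samples and lines geometric means. All 3 Smarca4 probes are lower in every knockout sample, while the 3 Smarca2 probes overlap between the groups.

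Among the 52 genes tested, 7 were higher and 13 lower in the knockout at an adjusted p under 0.05. These are 13.5% and 25% of the members, beside 16.3% and 25.8% of all genes tested, and 38.5% in either direction beside 42.1%. The members as a whole thus moved about as often as other genes. Dpf1 is among the higher calls but met the filter only through the knockout arrays, and 6 members were called higher with a filter that requires all arrays. The median log2 fold change was -0.11 over the members and -0.12 over all genes, and the median size of the change was 0.38 and 0.44. The groups did not overlap for 27 members, or 51.9%, beside 51.1% of all genes. Calls with a change of 2-fold or more numbered 6 among the members, 4 higher (Smarcd3, Dpf1, Chd3 and Smarca1) and 2 lower (Chd6 and Smarca4), where the size for Dpf1 is a fitted value against signals mostly near background. That is 11.5% of the members, beside 18.5% of all genes.

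These directions are relative to each array's percentile, and the small falls depend on it. Against 7 spike-in probes, the median of all genes moved from -0.12 to 0.44 and that of the members from -0.11 to 0.46. Then 20 members were called higher and 2 lower, the latter being Smarca4 and Chd6, and 83.3% rather than 38.7% of the calls over all genes were higher (90.9% rather than 35% of those over the members). With the percentile taken only over probes detected on every array (the all-array percentile), 49.5% of all calls and 47.4% of the members' calls were higher, and the median of all genes was -0.01. Against the spike-in probes 5 of the lower calls named below changed sign (Bcl7a, Dpf2, Ss18l1, Baz1b and Ep400), 6 stayed negative without passing the threshold (Brd7, Phf10, Brd9, Dpf3, Mta1 and Srcap), and the 7 higher calls stayed higher.

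**Figure D2:**
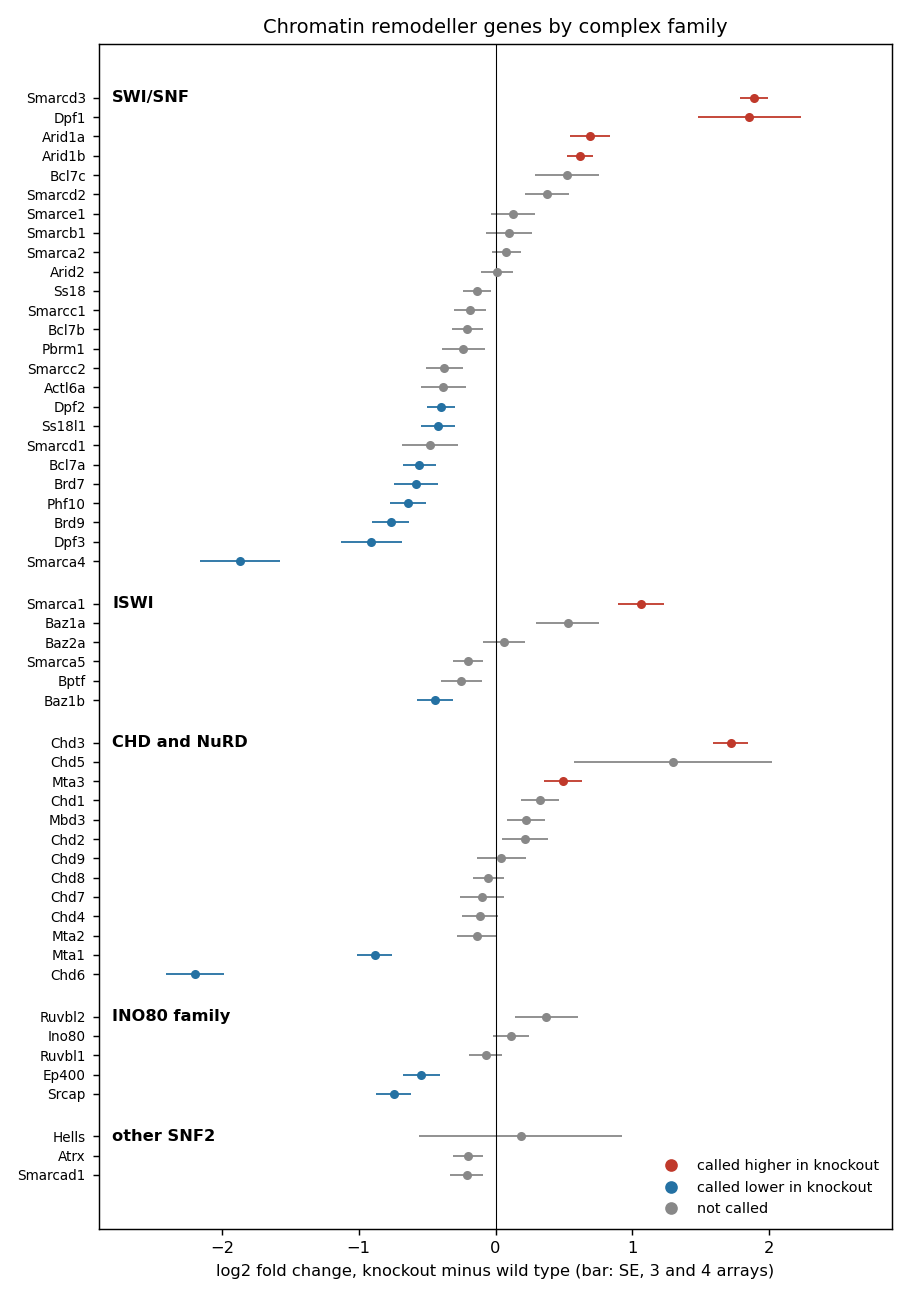
Log2 fold change of the 52 tested genes, knockout minus wild type, by complex family and ordered by value; points are limma estimates from 3 and 4 arrays, bars are standard errors and colours mark genes past an adjusted p of 0.05. Rises and falls stand side by side in the SWI/SNF, ISWI and CHD and NuRD families, with Chd6 (-2.20) and Smarca4 (-1.87) lowest and Smarcd3 (1.89) highest.

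In the SWI/SNF family 4 of 25 tested genes were higher and 8 lower, beside 16.3% and 25.8% of all genes tested. The median log2 fold change of the family was -0.21, which turned to 0.36 against the spike-in probes. All 5 subunits that define BAF were called, 3 higher and 2 lower, where 42.1% of all genes were called in either direction. Of these, Dpf1 met the filter only through the knockout arrays, and the calls of Arid1b, Dpf2 and Dpf3 did not hold in every alternative. Arid1a, which encodes a large DNA-binding BAF subunit, read 7.31, 6.45 and 6.28 in the wild type samples and 11.2, 12.8, 10.5 and 8.95 in the knockout samples. Its log2 fold change was 0.69 (SE 0.15, limma adjusted p = 0.0081). Its paralog Arid1b, which takes the same place in the complex, read 4.64, 4.42 and 4.65 against 6.91, 7.03, 7.24 and 6.90, a log2 fold change of 0.62 (SE 0.10, limma adjusted p = 0.0021). Every knockout sample lay above every wild type sample for both. The mean over the probes of Arid1b gave -0.26. Among them a probe on another transcript had a log2 fold change of -1.86 (SE 1.02), with wild type signals of 22.9, 1.42 and 13.3.

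The Dpf genes encode paralogous zinc finger subunits of BAF that read histone marks, and they did not move together. Dpf1, known from neurons, read 0.0125, 0.0218 and 0.0326 in the wild type samples and 0.0490, 0.0864, 0.110 and 0.0678 in the knockout samples, a fitted log2 fold change of 1.85 (SE 0.38, limma adjusted p = 0.0066). It was well above background in 1 of 3 wild type and all 4 knockout samples and met the filter only through the latter, so the fitted size is uncertain. With a filter that requires all arrays it was not tested. Beside 16.3% higher and 25.8% lower over all genes tested, 2 of 13 measured neuronal markers were higher and 3 lower. Their summed signals were 47.7 to 49.9 in the wild type and 50.2 to 67.0 in the knockout samples. Among the lower ones, Syt1 was well above background in 3 wild type and 0 knockout samples, so it met the filter only through the wild type. The part of the neuronal markers in the value of Dpf1 was not tested. Dpf3, known from heart and skeletal muscle, read 0.783, 0.713 and 0.801 against 0.612, 0.374, 0.313 and 0.385, a log2 fold change of -0.91 (SE 0.22, limma adjusted p = 0.015). The other kept Dpf3 probe gave -0.61 (SE 0.29, limma adjusted p = 0.13 over all probes) and was not called. Dpf2, the widely expressed form, read 11.6, 11.03 and 12.1 against 8.10, 9.04, 8.81 and 9.15, a log2 fold change of -0.40 (SE 0.10, limma adjusted p = 0.018). The groups did not overlap for any of these genes, and Mutant_175 kept the highest Dpf3 signal of the knockout samples. Without Wild Type_189 the call was lost for Dpf3 (-0.88, limma adjusted p = 0.054) and Dpf2 (-0.37, 0.083), and without Wild Type_181 for Dpf2 (-0.40, 0.066). Dpf2 also missed the threshold with quantile normalization (-0.25, limma adjusted p = 0.10), the all-array percentile (-0.28, 0.067) and normexp (-0.25, 0.062).

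Of the 4 PBAF subunits 2 were lower and 0 higher, beside 25.8% and 16.3% of all genes tested. Phf10, a PHD finger subunit, read 5.56, 6.25 and 5.94 in the wild type samples and 3.18, 3.93, 4.16 and 4.00 in the knockout samples, a log2 fold change of -0.64 (SE 0.13, limma adjusted p = 0.0067). The other kept Phf10 probe gave -0.40 (SE 0.16, limma adjusted p = 0.077 over all probes) and was not called. Brd7, the bromodomain subunit of PBAF, read 30.6, 29.9 and 35.4 against 26.5, 17.3, 21.9 and 20.5, a log2 fold change of -0.58 (SE 0.16, limma adjusted p = 0.024). All 5 kept Brd7 probes were called lower, with log2 fold changes of -0.63 to -0.56, where 24.0% of all kept probes were called lower. The adjusted p of its brightest probe exceeded 0.05 without any 1 wild type sample or without Mutant_188 (0.056 to 0.095 with limma, log2 fold changes of -0.63 to -0.51), with quantile normalization (-0.38, adjusted p = 0.087) and with normexp (-0.36, 0.065). The other PBAF genes, Arid2 at 0.01 (SE 0.12) and the polybromo gene Pbrm1 at -0.24 (SE 0.16), did not pass the test. Brd9, the bromodomain subunit that defines ncBAF, read 8.20, 8.24 and 8.22 against 3.96, 5.14, 5.54 and 4.85. Its log2 fold change was -0.77 (SE 0.14, limma adjusted p = 0.0038), and its other probe gave -0.79. The knockout samples of both bromodomain genes lay below all wild type samples.

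Smarcd3 was the SWI/SNF gene with the largest rise. It encodes Baf60c, the form of the Baf60 subunit known from heart and muscle development, and lies on chromosome 5 of mm9. It read 7.93, 7.82 and 8.001 in the wild type samples and 31.7, 29.6, 28.8 and 27.5 in the knockout samples, with little spread in either group. The log2 fold change was 1.89 (SE 0.10, limma adjusted p = 3e-05), or 3.71-fold. The 2 probes printed above gave much the same, 1.83 (SE 0.12) at base 1059 and 1.82 (SE 0.12) at base 943. Its paralogs were not called: Smarcd1 (Baf60a) read 0.163, 0.181 and 0.164 against 0.137, 0.103, 0.164 and 0.0939, and Smarcd2 (Baf60b) 0.991, 0.983 and 0.973 against 1.11, 1.23, 1.67 and 1.16. Their log2 fold changes were -0.48 (SE 0.20) and 0.38 (SE 0.16).

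Of the 13 tested subunits grouped here as shared among SWI/SNF forms, though not each is in every form, Smarcd3 was higher and Bcl7a and Ss18l1 were lower. Bcl7a, an accessory subunit of the ATPase module, read 35.1, 42.4 and 41.3 in the wild type samples and 25.1, 28.1, 25.9 and 28.5 in the knockout samples, a log2 fold change of -0.56 (SE 0.12, limma adjusted p = 0.0079). That probe follows an Ensembl transcript, and the probe on the RefSeq transcript, dimmer at 1.73 to 1.91 in the wild type, gave 0.04 (SE 0.13). The mean over its probes gave -0.26 (limma adjusted p = 0.085). Ss18l1 encodes CREST, which takes the place of Ss18 in the complexes of neurons. It read 0.173, 0.164 and 0.180 against 0.146, 0.130, 0.132 and 0.110, a log2 fold change of -0.42 (SE 0.13, limma adjusted p = 0.031). The samples of the groups did not overlap, but the call was lost without any 1 wild type sample, Mutant_182 or Mutant_188 (limma adjusted p of 0.063 to 0.11, log2 fold changes of -0.45 to -0.34). It was also lost with the all-array percentile (-0.30, limma adjusted p = 0.085), normexp (-0.27, 0.061), no filter on dim probes (0.064) and a trended robust prior (0.057). Smarcb1, Smarcc1, Smarcc2, Smarce1 and Actl6a did not pass the test. Smarcb1 gave 0.10 (SE 0.17), Smarcc1 -0.19 (SE 0.12), Smarcc2 -0.37 (SE 0.14, limma adjusted p = 0.061), Smarce1 0.13 (SE 0.16) and Actl6a -0.38 (SE 0.16). Of the remaining accessory subunits, Ss18 gave -0.14, Bcl7b -0.21 and Bcl7c 0.52 (SE 0.23).

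Paralogs that share a place in the complex were compared by their log2 ratio within each array, which is free of the array's scaling. The baseline of such a ratio also holds the probes' own brightness, so only its shift between groups was read. Of 15 pairs listed 14 could be tested, by an exact two-sided permutation test of the group labels, whose smallest possible p is 0.029. An adjusted p under 0.05 would need 9 of the 14 pairs at that smallest p, so no pair could pass alone. By this criterion 0 pairs were called, and 5 had an unadjusted p under 0.05. The 5 pairs, each at p = 0.029 and 0.080 after adjustment by this exact permutation test, were Smarca4 over Smarca2, Smarcd1 over Smarcd3, Smarcd2 over Smarcd3, Bcl7a over Bcl7b and Dpf1 over Dpf2.

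Smarca4 over Smarca2 shifted by -1.95, with knockout samples at -2.59, -1.93, -1.16 and -2.11 from the wild type mean and an SD of 0.05 among wild type and 0.59 among knockout samples. Smarcd1 over Smarcd3 shifted by -2.37 and every knockout sample lay between -2.65 and -1.91. Smarcd2 over Smarcd3 shifted by -1.51 (-1.83 to -1.09). The ratio of the Baf60 forms thus moved towards Smarcd3 in each of the 4 knockout samples. Dpf1 over Dpf2 shifted by 2.25 (1.75 to 2.80), with wild type samples between -0.74 and 0.59 from their mean and Dpf1 near background there. Bcl7a over Bcl7b shifted by -0.35, with all knockout samples between -0.37 and -0.33 and wild type samples between -0.28 and 0.15. With the RefSeq probe of Bcl7a that shift was 0.25.

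Of the other pairs, 4 had an exact permutation p of 0.057 (0.089 adjusted): Smarcd1 over Smarcd2 at -0.85, Bcl7a over Bcl7c at -1.08, Bcl7b over Bcl7c at -0.73 and Dpf1 over Dpf3 at 2.76, the last with Dpf1 well above background in 1 of 3 wild type samples. Ss18 over Ss18l1 shifted by 0.28 (exact permutation p = 0.086) and Dpf2 over Dpf3 by 0.51 (0.14). The smallest shifts of the 14, with the brightest probes, were those of Arid1a over Arid1b at 0.07 (exact permutation p = 0.66), Brd7 over Brd9 at 0.18 (0.69) and Smarcc1 over Smarcc2 at 0.19 (0.17). For Arid1a over Arid1b, the knockout samples lay between -0.17 and 0.32 from the wild type mean, and the wild type samples between -0.11 and 0.11. Over the alternatives this shift ranged from -0.011 to 0.95 and that of Brd7 over Brd9 from -0.016 to 0.31, each with 1 change of sign.

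**Figure D3:**
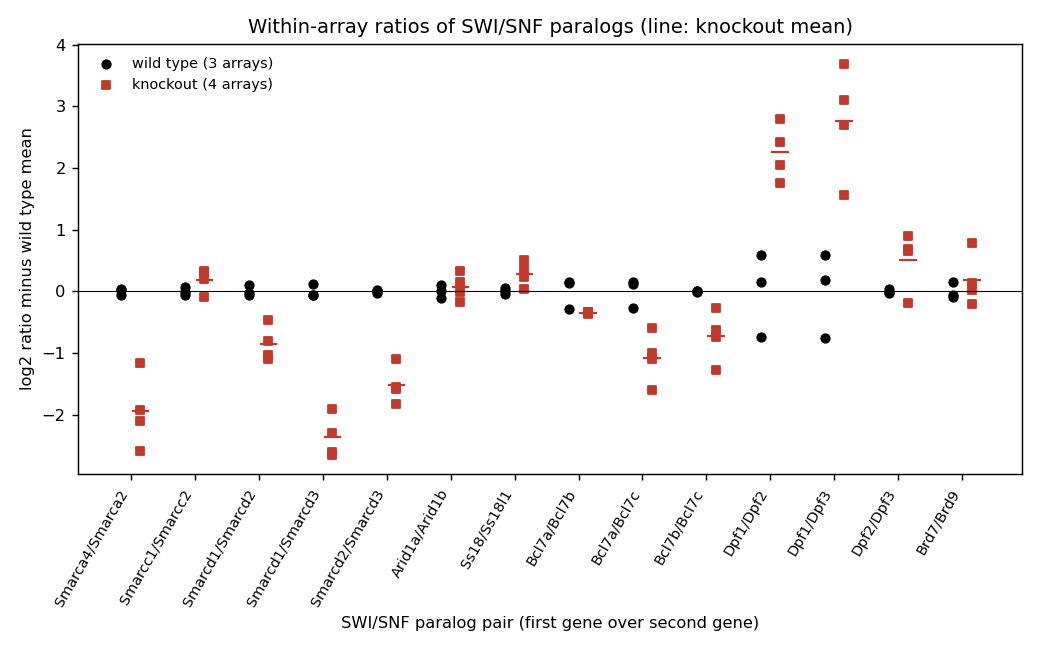
Log2 ratio of 14 SWI/SNF paralog pairs within each array, minus the wild type mean of that pair; black circles are the 3 wild type samples, red squares the 4 knockout samples and red lines their mean. The knockout samples of Smarca4/Smarca2 (-1.95) and Smarcd1/Smarcd3 (-2.37) lie far below the wild type samples, and those of Arid1a/Arid1b (0.07) overlap them and spread wider on both sides.

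In the ISWI group, beside 16.3% higher and 25.8% lower over all genes tested, 1 of 6 genes was higher and 1 lower. The median of -0.07 turned to 0.046 with quantile normalization, 0.045 with the percentile over probes detected on every array and 0.50 against the spike-in probes. Smarca1, the SNF2L motor, read 0.162, 0.169 and 0.137 in the wild type samples and 0.376, 0.254, 0.327 and 0.355 in the knockout samples, a log2 fold change of 1.06 (SE 0.17, limma adjusted p = 0.0022). Its 3 other kept probes, spread over 41.9 kb, were also called higher at 0.74 to 0.97, and no knockout sample overlapped the wild type at the brightest probe. The other motor, Smarca5 (SNF2H), read 5.30, 5.13 and 5.70 against 4.54, 4.60, 5.22 and 4.38, and its -0.20 (SE 0.11) did not pass the test. Baz1b, whose protein WSTF joins SNF2H in the WICH complex, read 0.809, 0.775 and 0.856 against 0.496, 0.611, 0.660 and 0.642, a log2 fold change of -0.44 (SE 0.13, limma adjusted p = 0.031). Without any 1 wild type sample or without Mutant_182 it did not pass (limma adjusted p of 0.062 to 0.11, log2 fold changes of -0.48 to -0.40), nor with the all-array percentile (-0.33, 0.097) or without the filter on dim probes (-0.44, 0.063). Baz1a gave 0.53 (SE 0.23), the NoRC subunit Baz2a 0.06 (SE 0.15) and Bptf, the large NURF subunit, -0.25 (SE 0.15).

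The CHD and NuRD group held the largest fall of all members. Of its 13 genes 2 were higher and 2 lower, beside 16.3% and 25.8% of all genes tested. The median of the group was 0.04 (0.61 against the spike-in probes). It fell below 0, to between -0.073 and -0.0059, without any 1 knockout sample or without Wild Type_189. Chd3, an ATPase of NuRD, read 2.83, 2.75 and 2.74 in the wild type samples and 7.83, 10.3, 10.03 and 8.64 in the knockout samples. Its log2 fold change was 1.72 (SE 0.13, limma adjusted p = 9.8e-05), or 3.29-fold, and the probe printed above gave 1.70 (SE 0.11) from signals of 0.0679, 0.0689 and 0.0692 against 0.214, 0.212, 0.242 and 0.226. Every knockout sample thus lay above the wild type at both probes. The alternative NuRD motor Chd4 read 37.8, 48.5 and 37.7 against 39.4, 34.97, 39.7 and 38.0, with a log2 fold change of -0.11 (SE 0.13). A dimmer Chd4 probe was called lower, at -0.64 (SE 0.13). Chd5, the form known from brain, gave 1.30 with an SE of 0.72, as Mutant_188 stood at 0.536 and the other samples between 0.0474 and 0.147.

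The Mta genes encode alternative NuRD subunits that bind the histone deacetylases, and they did not share a direction. Mta1 read 1.60, 1.57 and 1.81 in the wild type samples and 0.797, 0.882, 1.05 and 0.884 in the knockout samples, a log2 fold change of -0.88 (SE 0.13, limma adjusted p = 0.0017). Mta3 read 1.34, 1.32 and 1.44 against 2.31, 1.73, 2.02 and 1.70, a log2 fold change of 0.49 (SE 0.14, limma adjusted p = 0.025). Neither pair of groups overlapped. Without any 1 wild type sample the Mta3 call was lost (limma adjusted p of 0.062 to 0.088, 0.47 to 0.53 on the log2 scale), as it was without the filter on dim probes (0.49, 0.0502) and with the mean over its probes (0.27, 0.10), and its other kept probes gave -0.05 and 0.36. Mta2 at -0.14 (SE 0.14) and Mbd3, the methyl-binding family subunit of NuRD, at 0.22 (SE 0.14) did not pass.

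Chd6, a motor of the CHD subfamily that also holds Chd7, Chd8 and Chd9, read 2.23, 2.08 and 3.08 in the wild type samples and 0.492, 0.604, 0.408 and 0.646 in the knockout samples. The log2 fold change was -2.20 (SE 0.21, limma adjusted p = 0.00025), or 4.59-fold lower. Its 6 kept probes did not give a single value. Measured upstream along the gene from the probe nearest the 3′ end, the probes at 0, 14.4 and 21.6 kb gave -2.20, -1.53 and -1.93. Those at 53.3, 82.8 and 88.0 kb gave -0.03 (SE 0.16), -0.66 (SE 0.13) and -0.03 (SE 0.38), and these 3 were dim. Of the printed probes, base 4411, at 21.6 kb, read 0.641, 0.766 and 1.02 against 0.252, 0.236, 0.138 and 0.229. Base 2726, at 53.3 kb, read 0.0871, 0.0819 and 0.111 against 0.0903, 0.109, 0.0803 and 0.0860. The groups are apart at the first and overlap at the second, and the difference between the probes was not tested, as these were singled out after their values were seen. Chd7 (-0.10), Chd8 (-0.05) and Chd9 (0.04) did not pass the test at their brightest probes, nor did Chd1 (0.33, SE 0.14) and Chd2 (0.21, SE 0.17).

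**Figure D4:**
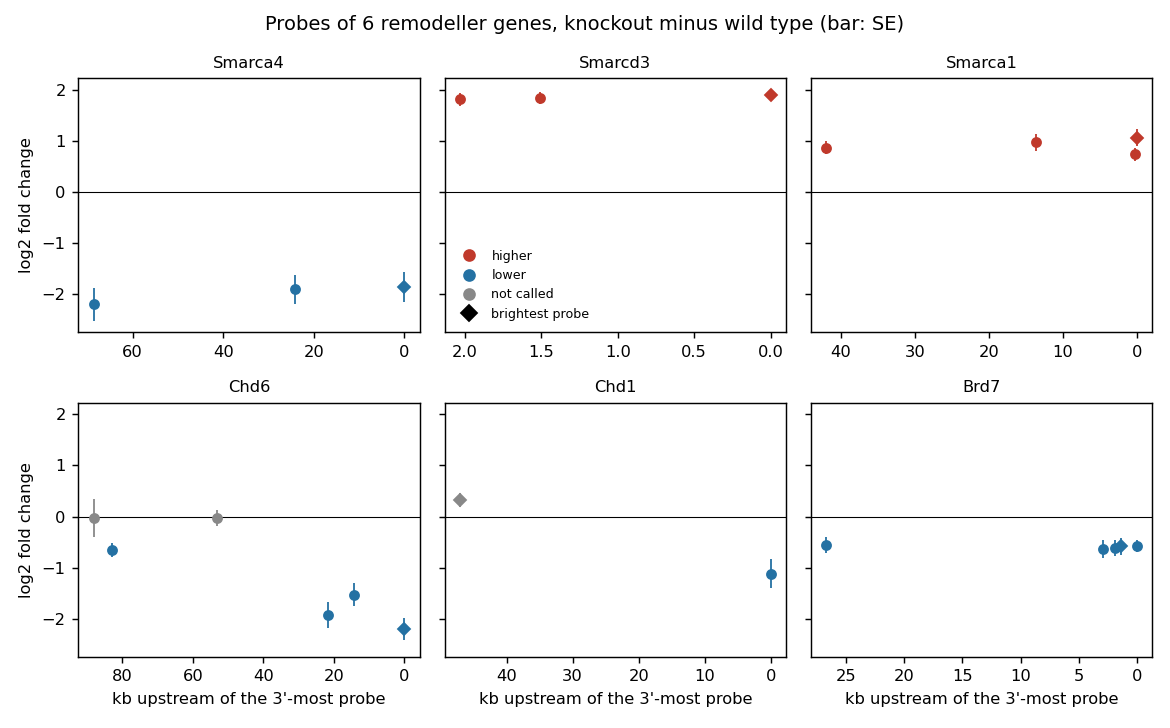
Log2 fold change of each kept probe of 6 remodeller genes against its distance in kb upstream of the probe nearest the 3′ end (right edge of each panel); bars are standard errors, diamonds mark the probe that stands for the gene and colours mark calls. Smarca4, Smarcd3, Smarca1 and Brd7 keep 1 direction along the gene, Chd6 is near -2 over its last 21.6 kb and closer to 0 upstream, and Chd1 differs in sign between its 2 probes.

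Other genes also differed between probes. Of the 20 called members 14 had another kept probe. In 10 of them all other probes had the same sign, in 7 at least 1 was called the same way, and in 1, Ep400, a probe was called the other way. Of 26 members that were not called and had another kept probe, 9 had a dimmer probe that was called. In 4 it was higher (Baz2a, Bcl7b, Bcl7c and Chd8) and in 5 lower (Bptf, Chd1, Chd4, Ruvbl2 and Smarce1). The Smarce1 probe was well above background in 3 wild type and 0 knockout samples, so it met the filter only through the wild type. Against the floor used for Smarca4 it was at least 1.31-fold lower. For Chd1 the probe at the 3′ end read 0.661, 0.679 and 0.736 against 0.231, 0.520, 0.238 and 0.358 and was called lower at -1.12 (SE 0.29), while the brighter probe 47.0 kb upstream gave 0.33. For Bptf 1 of 4 probes read 1.68, 4.29 and 5.54 against 0.630, 0.926, 0.576 and 0.732, a log2 fold change of -2.28 (SE 0.40), and the other 3 gave -0.25 to 0.13. Opposite calls within a gene were found in 1 of 40 members with more than 1 kept probe (2.50%) and in 267 of 7737 genes in all (3.45%). More than 1 probe called in the same direction, with none called the other way, was found in 8 of these 40 members and in 2241 of the 7737 genes. Of all kept probes 24.0% were called lower. The counts of probes with the same sign and of members with a called dimmer probe were not taken over all genes.

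In the INO80 family, beside 16.3% higher and 25.8% lower over all genes tested, 0 of 5 genes were higher and 2 lower. The median of -0.07 likewise turned, to 0.065, 0.043 and 0.49 with those 3 scalings. Srcap, the motor that loads H2A.Z, read 40.2, 47.3 and 45.0 in the wild type samples and 29.3, 27.4, 22.7 and 26.3 in the knockout samples, a log2 fold change of -0.74 (SE 0.13, limma adjusted p = 0.0034). This probe follows an Ensembl transcript. The 2 RefSeq probes were far dimmer, at 0.0462 to 0.0664 in the wild type samples, and gave -0.35 (SE 0.18) and -0.15 (SE 0.14). With the brighter of these in place of the Ensembl probe the Srcap call was lost (limma adjusted p = 0.41). Ep400, the motor of the TIP60 complex, read 2.56, 2.39 and 2.30 against 1.47, 1.99, 1.67 and 1.54, a log2 fold change of -0.54 (SE 0.14, limma adjusted p = 0.015). Without Wild Type_181 or Wild Type_183 its call was lost (-0.50 and -0.55, limma adjusted p = 0.062 and 0.053), and its second probe, 75.02 kb upstream and dim, was called higher at 0.49 (SE 0.17). The mean of both probes was -0.025 (limma adjusted p = 0.90). The samples of the groups did not overlap at the brightest probe of either gene. Ino80 gave 0.11 (SE 0.13), and the AAA ATPases Ruvbl1 and Ruvbl2, shared by these complexes, -0.07 (SE 0.12) and 0.37 (SE 0.23).

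The 3 other SNF2 ATPases did not pass the test. Atrx, which deposits the histone variant H3.3, gave -0.20 (SE 0.11) and Smarcad1, known from DNA end resection, -0.21 (SE 0.12), and for both the groups did not overlap. Hells, a remodeller linked to DNA methylation and to dividing cells, gave 0.18 with an SE of 0.74. It read 0.0355, 0.0343 and 0.0377 in the wild type samples and 0.00947, 0.0514, 0.116 and 0.0482 in the knockout samples, so that Mutant_175 lay below and the other 3 above all wild type samples. Mutant_175 also stood apart in 15 proliferation markers, whose median shift from the wild type was -0.08 there and 3.1003, 3.45 and 2.42 in Mutant_182, Mutant_187 and Mutant_188. The part of this difference in the value of Hells was not tested.

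Genes of the same complexes outside the members were counted from lists. Over all genes tested, 16.3% were higher and 25.8% lower. Of 5 measured further SWI/SNF subunits 1 was higher and 2 were lower (median -0.19): Bicral, of ncBAF, at 1.02 (SE 0.18), and Bcl11a and Bcl11b, transcription factors that join BAF, at -1.27 (SE 0.17) and -1.81 (SE 0.28), the last well above background in 1 of 4 knockout samples. Of 6 ISWI and BAZ partners 0 were higher and 1 lower, the histone-fold gene Chrac1 at -0.69 (SE 0.14), with a median of -0.23. Of 9 genes in a NuRD list, which also held the related ATPase Chd1l, 0 were higher and 2 lower, Cdk2ap1 at -0.47 (SE 0.11) and the histone-binding Rbbp7 at -0.61 (SE 0.16), with a median of 0.07. Of 23 INO80, SRCAP and TIP60 subunits 2 were higher and 8 lower (median -0.21). The smallest p-values there belonged to the actin-related Actr6 of SRCAP at -1.42 (SE 0.18) and to the INO80 subunits Ino80c at 1.56 (SE 0.20) and Nfrkb at 0.64 (SE 0.13). Of 12 further SNF2-like ATPases 0 were higher and 5 lower (median -0.30), led by Ercc6l2 at -0.70 (SE 0.11), Zranb3 at -0.95 (SE 0.23) and Ercc6 at -0.63 (SE 0.17). Against the spike-in probes the medians of these 5 lists were 0.38, 0.34, 0.64, 0.36 and 0.27, with 2, 1, 5, 4 and 2 genes higher and 2, 0, 0, 1 and 0 lower. With quantile normalization 0 genes of the NuRD list were lower, and 1 with normexp. Of the INO80, SRCAP and TIP60 subunits 4 were lower with quantile normalization and 5 each with normexp and the all-array percentile, where 3 of the further SNF2-like ATPases were lower. Of the ISWI and BAZ partners 1 was higher with normexp and with the all-array percentile.

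The makeup of the hearts' RNA moved with the genotype beside all of these values. The marker counts below stand beside 16.3% higher and 25.8% lower over all genes tested. Of 13 cardiomyocyte markers 1 was higher and 11 were lower (median -1.25), and their summed signal was 6967 to 7515 in the wild type and 2827 to 3738 in the knockout samples. Of 12 fibroblast markers 9 were higher and 0 lower (325 to 357 against 674 to 942), and of 11 macrophage markers 7 were higher and 0 lower (146 to 156 against 154 to 267). Of 8 smooth muscle and pericyte markers 4 were higher and 0 lower (128 to 143 against 561 to 621). The rise of that sum came mostly from Acta2, whose mean log2 signal went from 5.29 to 8.73. The other higher ones were Cspg4 (1.24), Des (1.23) and Pdgfrb (0.59), while Tagln (0.60), Myh11 (0.35), Cnn1 (0.34) and Rgs5 (-0.64) were not called. Des is expressed in heart muscle too, so it does not mark these cells alone. Of 15 proliferation markers 7 were higher and 0 lower (22.1 to 23.7 against 21.1 to 69.5). Epicardial and mesothelial markers were higher in 2 and lower in 0 of 6 (3.28 to 4.08 against 7.06 to 23.7), lymphocyte markers in 2 and 0 of 7 (6.88 to 9.18 against 10.1 to 13.8), and endothelial markers in 1 and 3 of 10 (154 to 161 against 122 to 178). Among the epicardial and mesothelial calls, Krt19 was well above background in 0 wild type and 4 knockout samples, so it met the filter only through the knockout. Against the spike-in probes 1 of the cardiomyocyte markers was higher and 7 were lower (median -0.68), and 2 and 0 endothelial markers. The part of these differences in the remodeller genes' values was not tested. On each array 58.1% to 63.6% of 59305 spots were well above background, 82 to 146 were outliers and 0 were saturated, and the 75th percentile was 955 to 1079 in the wild type and 1245 to 1708 in the knockout samples. The number of arrays limits the precision.

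**Figure D5:**
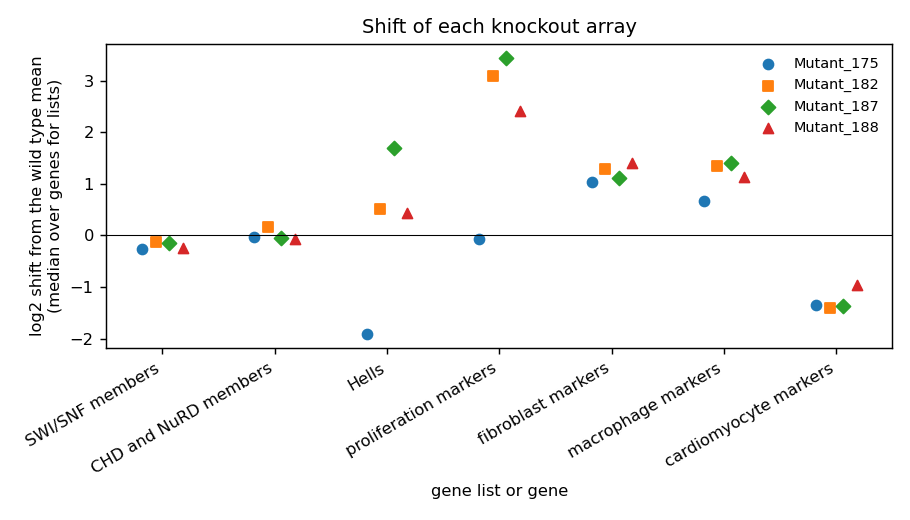
Log2 shift of each knockout sample from the wild type mean, for Hells and as the median over the genes of each list; marker shapes are the 4 knockout samples. The SWI/SNF members lie between -0.27 and -0.12 and the cardiomyocyte markers between -1.40 and -0.96 in every sample, while Mutant_175 stands apart from the other 3 for Hells and the proliferation markers.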

How the data were processed

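Per the file headers, the authors extracted spot intensity with Agilent Feature Extraction 10.7.3.1. The deposited intensity is the processed signal, background-corrected and linear, with flags for spots well above background, outlying or saturated. Probe coordinates are those of mm9, per the file headers. The authors' deposited value table holds the same intensity (99.6% of cells within 0.01 on the log2 scale) and was used only as an alternative.

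Spots of a probe were averaged without outliers, and log2 of the signal minus the array's 75th percentile was used. The filter kept probes that were well above background on 3 or more arrays (34481, of which 124 belong to members). Scaling to a percentile removes differences in total messenger RNA. RefSeq names of GRCm38.p6 updated 1535 of 32994 matched probes' symbols. Members were matched by symbol, and every member may be named. Per-array values were given for Smarca4, Smarca2, up to 4 called members of a family in each direction, and some others for contrast. From the other complexes' lists up to 3 genes with the smallest p were named. Members and lists were chosen with earlier results of these data known.

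All 22971 genes, each by its brightest kept probe, were fitted with lmFit and eBayes (limma 3.58.1, R 4.3.3) without covariates, with a threshold of 0.05 after Benjamini-Hochberg adjustment. Member probes were adjusted over all kept probes. All arrays lie on 1 slide with 1 scan, and the slide's rows, by the file names, coincide with the groups. The fit was tested on simulated data. Alternatives were quantile, median, spike-in and all-array percentile scaling, normexp (offset 50), those deposited values, no filter on dim probes, a filter requiring all arrays, averaging a gene's probes, array weights, a trended robust prior and dropping arrays singly. The brightest RefSeq probe was added after the data were seen. Figures used matplotlib 3.10.9.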

Additional observations from a re-analysis of the deposited data

Results flagged for a closer look

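In Mutant_187, Chd9 read 2.47 relative to the array's 75th percentile, below the other knockout samples at 3.49 to 3.75. In the same sample Ruvbl1 read 9.90, above the others at 7.78 to 8.07. Each sample's gap to its nearest neighbour was large for its group of 4 by Dixon's criterion. The 53 members and 14 pairs were checked, 2 members and 0 pairs met it, and chance alone marks about 1 in 20 groups.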

How the results depend on the processing

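Of the 20 called members, Smarca4 (-2.10 to -1.30), Smarcd3 (1.85 to 2.46), Arid1a (0.61 to 1.26), Dpf1 (0.61 to 2.42, not tested under the filter over all arrays), Smarca1 (0.78 to 1.63), Chd3 (1.66 to 2.28) and Chd6 (-2.31 to -1.06) kept their direction and call in every alternative that tested them. The other 13 kept direction and call 197 times over all alternatives, missed the threshold 43 times and changed sign 7 times. Sign changes came with spike-in scaling for Ss18l1 (0.15), Bcl7a (0.010), Dpf2 (0.17), Baz1b (0.13) and Ep400 (0.022), with the mean over probes for Arid1b (-0.26), and with the RefSeq probe for Bcl7a (0.041). Members called higher numbered 20 with spike-in scaling and 12 with array weights, and members called lower 2 with spike-in scaling. Leaving out 1 array gave 6 to 10 higher and 8 to 16 lower, with 8 lower without Wild Type_181 and without Wild Type_189. The causes were not tested. The SWI/SNF median was -0.070 with quantile normalization, -0.092 with the all-array percentile, 0.36 with spike-in scaling and -0.068 with normexp. The other SNF2 median was -0.081, 0.37 and -0.071 with quantile, spike-in and normexp, and 0.14 with the mean over probes. The CHD and NuRD median was 0.16 with the all-array percentile, 0.61 with spike-in scaling and from -0.073 (without Mutant_182) upward on leaving out 1 array. The ISWI and INO80 family medians were 0.50 and 0.49 with spike-in scaling. Smarca2 was 0.65 with spike-in scaling, where it was called, and -0.046 with the mean over probes. In every alternative with a test, 0 paralog pairs passed the exact permutation test after adjustment, where 9 of 14 pairs would have to reach the smallest possible p for any to pass. Leaving out 1 array gave their ratios without a test, since 0.05 cannot be reached there. Sizes are uncertain for probes near background, such as those of Dpf1, Hells and Chd5. No paired analysis was possible because the replicate numbers of the groups are not shared.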
